A study of Mus musculus with 13 samples.

Results

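Messenger RNAs of 10 genes for making, conjugating and moving bile acids were followed in mouse livers injured with D-galactosamine and lipopolysaccharide (GalN/LPS), with or without the prostaglandin E2 analogue dmPGE2. They are the 10 rows among 54532 genes of the deposited count table whose symbol is Cyp7a1, Cyp7b1, Cyp8b1, Cyp27a1, Baat, Slc27a5, Abcb11, Slc10a1, Abcb4 or Abcc2, and they were chosen for their role, not by a threshold on these values. All 10 passed the filter on low counts that left 14280 genes to test, with 178 to 21283 counts per gene and library.

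The livers came from wild-type C57 BL6 mice aged 8 weeks, with an average weight of 20 g. Of the 13 libraries, 4 were from mice given 300 µg/kg of dmPGE2 intraperitoneally 1 h before GalN/LPS, called pretreated here, and 3 from mice given GalN/LPS alone, 500 mg/kg of D-galactosamine with 5 µg/kg of lipopolysaccharide. The other libraries were 3 from mice given 300 µg/kg of dmPGE2 alone and 3 from saline controls, and livers were taken at 6 h. The labels do not give the sex, the hour of day or the interval after dmPGE2 alone, and they do not say whether each library is a separate animal, so p-values measure the spread between these samples. Galactosamine traps uridine nucleotides in hepatocytes and limits their RNA synthesis, so the model has injury and a block on transcription at the same time.

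Bile acids are made from cholesterol in hepatocytes. In the classical route Cyp7a1 makes the first and rate-limiting hydroxylation and Cyp8b1 adds the hydroxyl that distinguishes cholic acid, while in the alternative route Cyp27a1 in mitochondria and Cyp7b1 hydroxylate the side chain and the ring. Slc27a5 activates bile acids with coenzyme A, and Baat joins them to taurine or glycine. Slc10a1, also called NTCP, takes conjugated bile acids up from blood, Abcb11, the bile salt export pump, secretes them into bile, Abcb4 moves phosphatidylcholine into bile and Abcc2 exports conjugated bilirubin and other organic anions. The nuclear receptor Nr1h4, also called FXR, senses bile acids, induces Abcb11 and, through Nr0b2 in liver and Fgf15 from the intestine, represses Cyp7a1 and Cyp8b1.

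The genes lie at 10 places on GRCm38, given by the deposited table as gene start and end, introns included. The classical route has Cyp7a1 chromosome 4, 6265612 to 6275633, minus strand, and Cyp8b1 chromosome 9, 121914356 to 121916305, minus strand. The alternative route has Cyp27a1 chromosome 1, 74713574 to 74737892, plus strand, and Cyp7b1 chromosome 3, 18071950 to 18243338, minus strand. The conjugating enzymes are Slc27a5 chromosome 7, 12988346 to 12998192, minus strand, and Baat chromosome 4, 49489422 to 49506557, minus strand. The uptake carrier is Slc10a1 chromosome 12, 80953183 to 80968705, minus strand. The exporters are Abcb11 chromosome 2, 69238282 to 69342616, minus strand, Abcb4 chromosome 5, 8893717 to 8959231, plus strand, and Abcc2 chromosome 19, 43782192 to 43840740, plus strand. Each gene that overlaps Abcb11, Cyp7b1 or Abcb4 had at most 23 counts over the 13 libraries together.

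Library totals lay between 16910800 and 17649700 counts in pretreated livers, 16575200 and 17709000 in GalN/LPS livers, 14829800 and 20777800 in dmPGE2 livers and 17018100 and 18425800 in saline livers. Values below are CPM, each count relative to its library total with TMM factors applied, with SD after the mean, and log2 fold changes with standard errors from edgeR, unless FPKM is named. The TMM factors were 0.683 to 0.830 in pretreated livers, 0.904 to 1.14 in GalN/LPS livers, 1.16 to 1.28 in dmPGE2 livers and 1.17 to 1.18 in saline livers, and scaling by library totals instead moved the median log2 fold change of all genes to -0.61 from -0.10 for pretreated against GalN/LPS livers, and to -0.15 from 0.02 for GalN/LPS against saline livers. Hepatocytes are the cells that express these genes, and all 10 hepatocyte markers, among them Alb, Apoa1 and Ttr, were detected in every library. Their summed level was 149126 to 227831 CPM in pretreated livers, 94465 to 134736 CPM in GalN/LPS livers, 72799 to 82970 CPM in dmPGE2 livers and 92552 to 110334 CPM in saline livers. In these bulk samples fewer hepatocytes and less RNA per hepatocyte cannot be told apart.

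**Figure D1:**
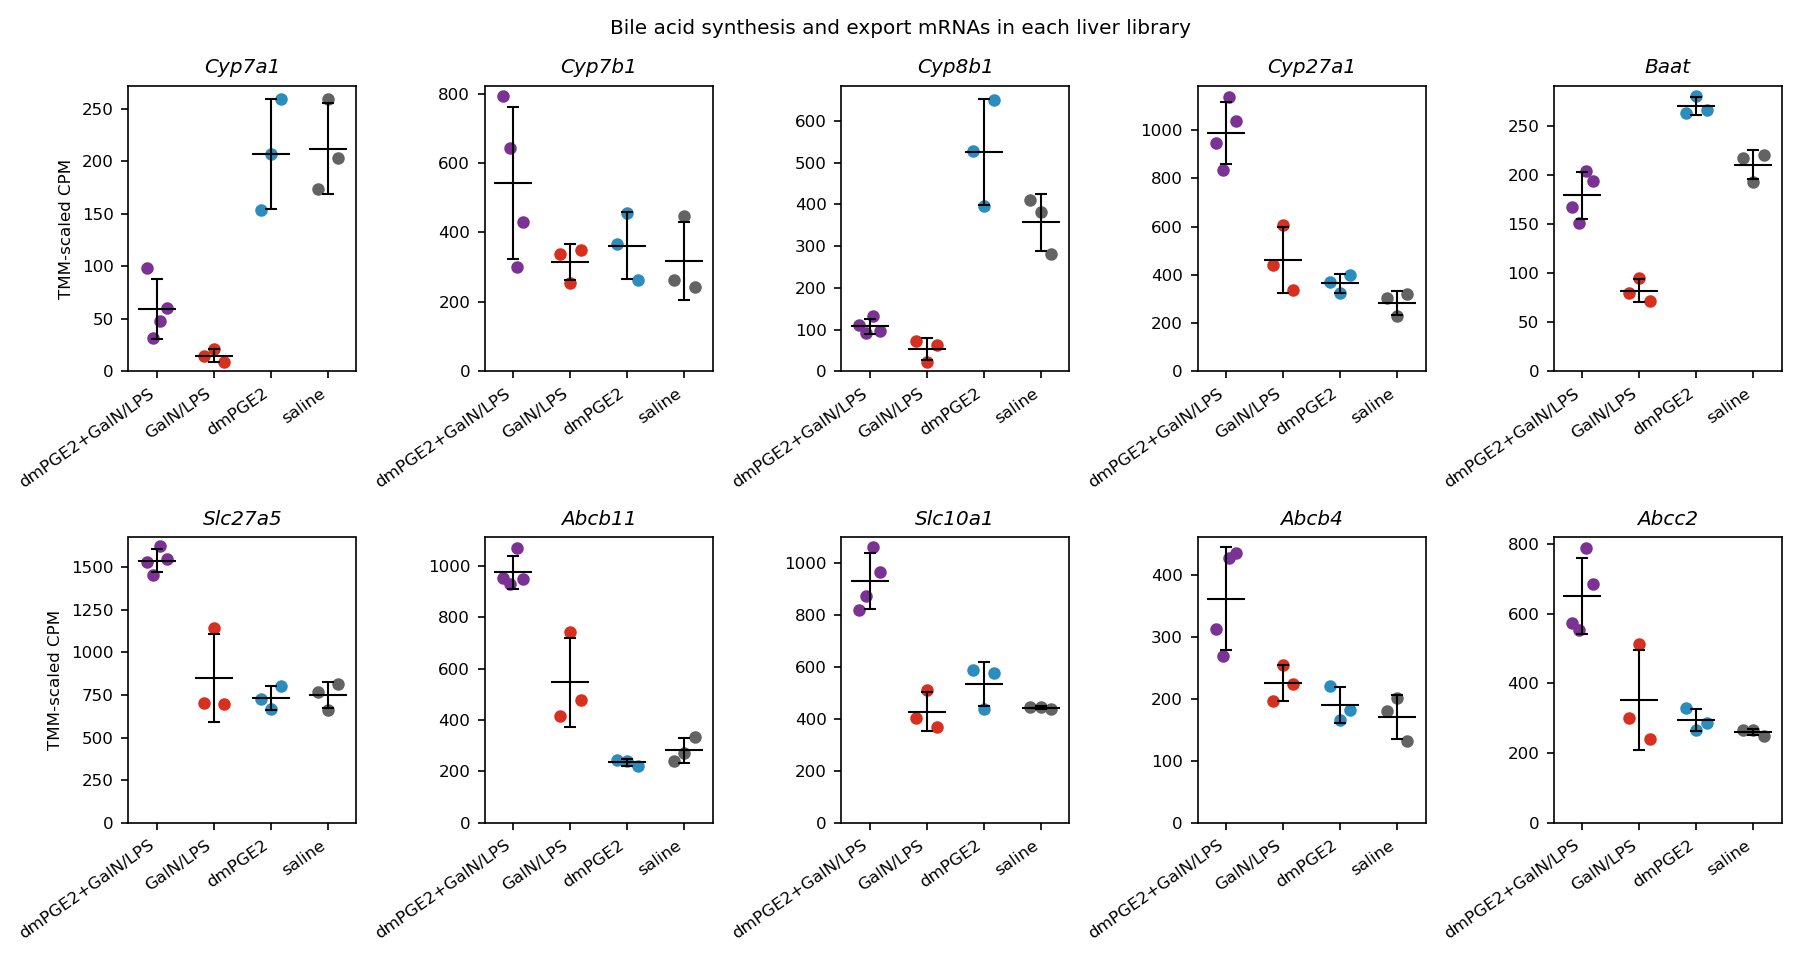
TMM-scaled CPM (linear axes from 0, each gene on its own scale) of the 10 bile acid genes in each library, with the mean and SD of each group in black. Cyp7a1, Cyp8b1 and Baat were low in the 3 GalN/LPS livers and higher in the 3 saline livers. The highest values of Cyp27a1, Slc27a5, Abcb11, Slc10a1, Abcb4 and Abcc2 were all in the 4 pretreated livers (dmPGE2+GalN/LPS).

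The 10 genes did not move together in GalN/LPS livers. Of the members, 3 fell in GalN/LPS livers against saline, the classical-route enzymes Cyp7a1 and Cyp8b1 and the conjugating enzyme Baat, and 2 rose, the export pump Abcb11 and the alternative-route enzyme Cyp27a1, while the other 5 were not past the test. Among all genes tested 25.6% fell and 27.4% rose, so the number of members called, 5 of 10, is near the background of 52.9% and is no result about them as a set. Their median log2 fold change was 0.08, and that of all genes was 0.02. Libraries of the 2 groups did not overlap for 5 members, the same count as those called, against 59.7% of all genes.

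Cyp7a1 had 14.9, 20.9 and 9.12 CPM in GalN/LPS livers, against 174, 259 and 203 CPM in saline livers. Every injured liver lay far below every saline liver, and the GalN/LPS mean was 7.06% of the saline mean. The log2 fold change was -3.83 ± 0.38 (edgeR adjusted p = 5.33e-07). Cyp8b1 had 72.7, 22.9 and 64.3 CPM in GalN/LPS livers, against 411, 381 and 280.1 CPM in saline livers. These groups did not overlap either, and replicate 2 of the GalN/LPS livers lay below the other 2. The change of Cyp8b1 was -2.74 ± 0.33 (edgeR adjusted p = 4.13e-06).

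The region upstream of Cyp8b1 is shown with those of Abcb11 and Cyp27a1, because these 3 are the called members for which the RefSeq promoter table (GRCm38.p6) held an entry, and they moved in opposite directions. The table matched 6 of the 10 members. Each line gives the 250 bases before the annotated start, 5′ to 3′ on the strand of the gene, with capitals on the letters of a motif.
Cyp8b1, chr9:121916306-121916555, minus strand: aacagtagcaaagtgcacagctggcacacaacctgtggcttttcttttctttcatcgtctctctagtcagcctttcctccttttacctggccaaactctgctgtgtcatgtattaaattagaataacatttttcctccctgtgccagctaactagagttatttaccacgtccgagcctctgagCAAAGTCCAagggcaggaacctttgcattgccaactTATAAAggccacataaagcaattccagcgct
Abcb11, chr2:69342617-69342866, minus strand: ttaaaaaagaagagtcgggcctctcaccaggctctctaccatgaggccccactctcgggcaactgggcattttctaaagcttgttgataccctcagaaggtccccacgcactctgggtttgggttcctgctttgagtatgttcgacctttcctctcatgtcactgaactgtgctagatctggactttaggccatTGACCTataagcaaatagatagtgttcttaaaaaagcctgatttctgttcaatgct
Cyp27a1, chr1:74713285-74713534, plus strand: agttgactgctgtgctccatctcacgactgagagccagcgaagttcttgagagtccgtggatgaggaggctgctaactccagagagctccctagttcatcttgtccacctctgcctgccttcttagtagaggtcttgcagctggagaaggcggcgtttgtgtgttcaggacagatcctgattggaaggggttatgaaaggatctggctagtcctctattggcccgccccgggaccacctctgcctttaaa

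Motifs were searched on both strands in the 250 bases before the start. The Cyp8b1 window holds CAAAGTCCA, a sequence bound by HNF4, at position -67 and TATAAA at -31 from the start. CAAAGTCCA is in 0.384% of the 32851 promoters of the table and TATAAA in 12.4%. The Abcb11 window holds TGACCT at -56, the reverse complement of AGGTCA, the core element of nuclear receptor sites, which is in 14.0% of promoters. The inverted repeat of that core with 1 base between its copies, called IR1, is a form that FXR can bind. An exact match to it is in 0.006% of promoters and in none of these 3 windows. Exact matches are that rare and inexact forms were not searched, so this absence does not show that a window lacks an FXR site. No motif searched is in the Cyp27a1 window. A match describes the sequence and is not a measured site.

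Baat, the enzyme that conjugates bile acids, had 80.3, 94.9 and 71.2 CPM in GalN/LPS livers, against 218, 193 and 220.3 CPM in saline livers. The 2 groups were well apart, and the change of -1.36 ± 0.15 (edgeR adjusted p = 1.35e-06) was smaller than those of the classical-route hydroxylases. Slc27a5, which acts just before Baat, had 700.3, 1144 and 694 CPM in GalN/LPS livers, against 766, 663 and 811 CPM in saline livers. Its groups overlapped, and its log2 fold change was 0.18 ± 0.19, with a 95% interval from -0.21 to 0.58 (edgeR adjusted p = 0.438).

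Abcb11 was higher in every GalN/LPS liver than in any saline liver, with 416, 744 and 479 CPM in GalN/LPS livers, against 242, 269.9 and 336 CPM in saline livers. The change was 0.95 ± 0.19 (edgeR adjusted p = 0.00068). Cyp27a1 had 439.8, 606 and 336 CPM in GalN/LPS livers, against 302, 229 and 319.9 CPM in saline livers. The groups were separate by a small gap between the lowest injured and the highest saline liver, and the change was 0.70 ± 0.20 (edgeR adjusted p = 0.00887). This call ended without replicate 2 of the GalN/LPS livers (0.44, adjusted p = 0.0570) and without replicate 2 of the saline livers (0.56, adjusted p = 0.0523).

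The members not past the test in this comparison had log2 fold changes of 0.43 for Abcc2, 0.40 for Abcb4, -0.01 for Cyp7b1 and -0.05 for the uptake carrier Slc10a1, beside Slc27a5. Slc10a1 had 403, 511 and 366 CPM in GalN/LPS livers, against 446, 445 and 437 CPM in saline livers. Injured livers lay on both sides of the narrow saline range, and the 95% interval of its change ran from -0.41 to 0.30. For Cyp7b1 the interval ran from -0.68 to 0.65, for Abcb4 from -0.03 to 0.83 and for Abcc2 from -0.04 to 0.91.

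Of the hepatocyte markers 2 of 10 fell and none rose past the test in this comparison, where 25.6% of all genes fell and 27.4% rose. The falls are near that share and no result about the list, and the median log2 fold change of these markers was 0.04. Markers of other cells mostly rose, at that same background. Of the Kupffer cell markers 7 of 8 rose, of the neutrophil markers 7 of 7, of the sinusoidal endothelial markers 7 of 7 and of the cholangiocyte markers 6 of 7 (1 fell). The summed Kupffer level was 560 to 919 CPM in GalN/LPS livers and 125 to 165 CPM in saline livers, and the summed neutrophil level was 656 to 868 CPM in GalN/LPS livers and 4.33 to 16.0 CPM in saline livers. The part of these shifts in the values of the bile acid genes was not tested.

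Replicate 2 of the GalN/LPS livers carried the highest value of its group for 8 of the 10 members, all but Cyp8b1 and Cyp7b1, for which it was the lowest. It also had the highest hepatocyte sum of its group. The coefficient of variation between replicates was widest for Cyp7a1, Cyp7b1 and Cyp8b1, with medians over the 4 groups of 32.4%, 31.0% and 21.7%, and lowest for Slc27a5 with 9.72%.

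Against GalN/LPS livers, pretreated livers had more mRNA of all 10 members under TMM scaling, of 6 under library totals and of 1, Cyp7a1, when libraries were scaled to the 10 hepatocyte markers. Among all genes 54.5% were called with TMM, 24.4% higher and 30.1% lower. With library totals 4.31% of all genes were higher and 47.6% lower, and with hepatocyte marker scaling 0.567% were higher and 65.1% lower. The median log2 fold change of the members was 0.95, against -0.10 for all genes, and 9 members did not overlap between groups, against 50.4% of all genes. Of the hepatocyte markers 9 of 10 rose in the same comparison, with a median of 0.87. Less the median of all genes under each scaling, the members' median was 1.05 with TMM, 1.03 with library totals and 1.02 with hepatocyte marker scaling. A change of scaling shifts all genes of a library alike, so this difference could hardly change and is no check on the scaling.

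The comparison shares its GalN/LPS livers with the one above. Cyp7a1 had the largest fitted change among the members. It had 98.4, 31.6, 47.8 and 60.0 CPM in pretreated livers, against 14.9, 20.9 and 9.12 CPM in GalN/LPS livers. All pretreated livers were above all GalN/LPS livers. The log2 fold change was 1.99 ± 0.34 (edgeR adjusted p = 0.000296), and it was 1.49 with library totals and 1.13 with hepatocyte marker scaling, past the test each time (adjusted p = 0.000831 and 0.0025). Cyp8b1 had 112, 90.9, 132 and 97.9 CPM in pretreated livers, against 72.7, 22.9 and 64.3 CPM in GalN/LPS livers. The groups did not overlap, and the change was 1.02 ± 0.30 (edgeR adjusted p = 0.00988) but 0.44 with library totals (adjusted p = 0.278).

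Both genes stayed far under the saline level. The pretreated mean of Cyp7a1 was 28.0% of the saline mean and that of Cyp8b1 30.3%. Against saline their changes were -1.84 ± 0.32 and -1.72 ± 0.29 (edgeR adjusted p = 0.000112 and 8.62e-05). Each remained called lower with library totals and with hepatocyte marker scaling. These move the median of all genes from 0.14 to -0.54 and -0.74, so a lower call could hardly be lost under them. Baat had 168, 151, 204 and 193 CPM in pretreated livers, against 80.3, 94.9 and 71.2 CPM in GalN/LPS livers. Its change was 1.13 ± 0.14 against GalN/LPS livers (edgeR adjusted p = 2.59e-05) and -0.23 ± 0.13 against saline livers (edgeR adjusted p = 0.142). Against GalN/LPS livers the Baat call ended with hepatocyte marker scaling (0.23, adjusted p = 0.173). Against saline livers Baat was called lower with library totals (-0.92) and hepatocyte marker scaling (-1.14), and also with DESeq2 (-0.29), no filter (-0.40), only the groups compared (-0.39), the filtered limma fits on FPKM (-0.30 and -0.31) and without GalN/LPS replicate 3 (-0.36), with adjusted p of at most 0.0431.

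In the alternative route Cyp27a1 had 947, 836, 1137 and 1036 CPM in pretreated livers, against 439.8, 606 and 336 CPM in GalN/LPS livers. The lowest pretreated liver was above the highest GalN/LPS liver, and the change was 1.10 ± 0.20 (edgeR adjusted p = 0.000357). Cyp7b1 was the exception to the separation, with 793, 644, 301 and 431 CPM in pretreated livers, against 338, 255 and 351 CPM in GalN/LPS livers. Replicates 1 and 2 of the pretreated livers were high while replicate 3 lay inside the GalN/LPS range. The call of 0.79 ± 0.30 (edgeR adjusted p = 0.0357) was lost in 5 of the fits that left out 1 library, without any one of the 3 GalN/LPS livers or of pretreated replicates 1 and 2 (adjusted p from 0.0628 to 0.120), and it also ended with RLE size factors (0.72, adjusted p = 0.0529), with library totals and in the limma fits on FPKM.

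For conjugation, Slc27a5 had 1527, 1454, 1620 and 1547 CPM in pretreated livers, against 700.3, 1144 and 694 CPM in GalN/LPS livers. Pretreated replicates were close together and well above the injured ones, with a change of 0.86 ± 0.18 (edgeR adjusted p = 0.00104). Slc10a1, which GalN/LPS alone had not moved past the test, had 816, 873, 1061 and 965 CPM in pretreated livers, against 403, 511 and 366 CPM in GalN/LPS livers. There was no overlap, and the change of 1.12 ± 0.16 (edgeR adjusted p = 7.59e-05) was 0.62 with library totals and 0.24 with hepatocyte marker scaling (adjusted p = 0.00192 and 0.210).

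Among the canalicular exporters Abcb11 had 954, 928, 1068 and 948 CPM in pretreated livers, against 416, 744 and 479 CPM in GalN/LPS livers. The change was 0.84 ± 0.18 (edgeR adjusted p = 0.00162) and stood on top of the rise with GalN/LPS alone. Abcc2 had 573, 554, 789 and 686 CPM in pretreated livers, against 302, 513 and 241 CPM in GalN/LPS livers, and Abcb4 had 313, 269, 428 and 435 CPM in pretreated livers, against 197, 255 and 223 CPM in GalN/LPS livers. Neither gene overlapped between groups, though the gap for Abcb4 was small, and their changes were 0.89 ± 0.21 and 0.68 ± 0.19 (edgeR adjusted p = 0.00295 and 0.00791). With library totals both calls ended (0.41 and 0.17, adjusted p = 0.0576 and 0.442), and with hepatocyte marker scaling Abcb4 and Abcb11 had slightly negative values (-0.23 and -0.01).

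**Figure D2:**
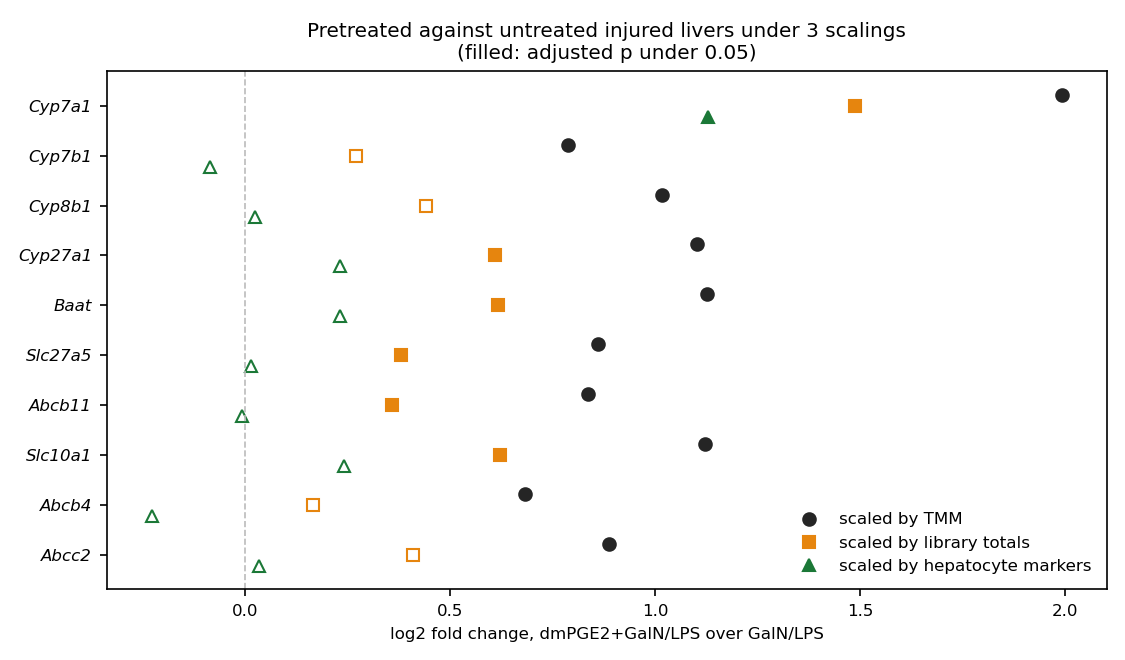
Log2 fold change (x axis) of each bile acid gene in pretreated over GalN/LPS livers, with libraries scaled by TMM (circles), by library totals (squares) or by 10 hepatocyte markers (triangles), filled where the edgeR adjusted p was under 0.05. With TMM 10 of 10 are filled and right of 0, with library totals 6 and with hepatocyte markers 1, Cyp7a1, while Cyp7b1, Abcb11 and Abcb4 lie left of 0 in the last. Of all genes 24.4% were called higher with TMM, 4.31% with library totals and 0.567% with hepatocyte markers.

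Against saline livers, 7 of the 10 members rose in pretreated livers, at a background of 34.8%, and 2 fell, at a background of 30.2%, with Baat not past the test (65% of all genes were called in either direction), and 8 did not overlap, against 61.8% of all genes. With library totals 5 rose and 3 fell, where 11.8% of all genes rose and 47.6% fell. With hepatocyte marker scaling 2 rose and 3 fell, where 6.79% of all genes rose and 51.8% fell. The 2 genes called higher under all of these 3 scalings were Cyp27a1 and Abcb11, and the 2 called lower under all 3 were Cyp7a1 and Cyp8b1. A lower call with TMM could hardly be lost, since library totals and hepatocyte marker scaling shift all genes down here.

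Cyp27a1 reached 3.49 times and Abcb11 3.45 times the saline mean in pretreated livers, with changes of 1.80 ± 0.20 and 1.79 ± 0.19 (edgeR adjusted p = 1.55e-06 and 1.01e-06). The other members called higher were Abcc2 at 1.32 ± 0.22, Abcb4 at 1.08 ± 0.20, Slc10a1 at 1.07 ± 0.16, Slc27a5 at 1.04 ± 0.18 and Cyp7b1 at 0.77 ± 0.30 (edgeR adjusted p from 2.97e-05 to 0.0325). The Cyp7b1 call ended with library totals (0.11), with only the groups compared (0.61, adjusted p = 0.111), in the limma fits on FPKM (0.66, adjusted p from 0.0861 to 0.188) and with hepatocyte marker scaling (-0.07). It also ended without pretreated replicate 1 (0.53) or 2 (0.68), saline replicate 1 (0.66) or 3 (0.62), or GalN/LPS replicate 3 (0.65). Of the hepatocyte markers 8 of 10 were higher in pretreated than in saline livers with TMM, where 34.8% of all genes were, with a median of 0.85. With library totals 3 were higher and 2 lower, where 11.8% and 47.6% of all genes were, with a median of 0.17. The part of these markers in the members' changes was not tested beyond the scaling given above.

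**Figure D3:**
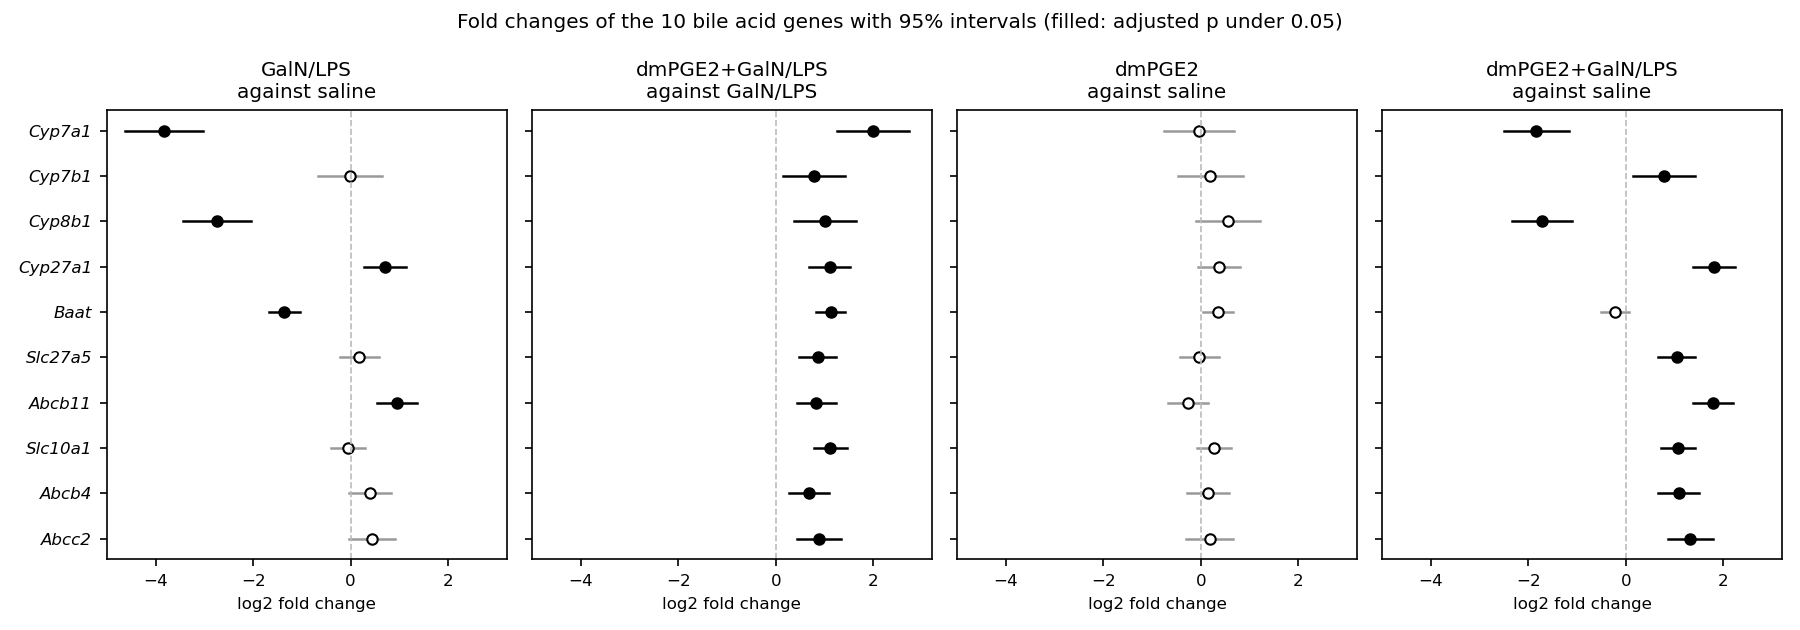
Log2 fold changes (x axis, TMM scaling) with 95% intervals of the 10 bile acid genes in 4 comparisons, filled where the edgeR adjusted p was under 0.05. GalN/LPS against saline has 3 filled points left and 2 right of 0, pretreated against GalN/LPS 10 right (6 with library totals, 1 with hepatocyte marker scaling), dmPGE2 against saline none, and pretreated against saline 2 left and 7 right (3 and 5 with library totals, 3 and 2 with hepatocyte marker scaling). Of all genes 25.6% were lower and 27.4% higher in the first comparison. In the second 24.4% were higher (4.31% with library totals, 0.567% with hepatocyte marker scaling). In the last 30.2% were lower and 34.8% higher (47.6% and 11.8% with library totals, 51.8% and 6.79% with hepatocyte marker scaling).

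Given alone, dmPGE2 left no member past the test against saline. The same held for all 14280 genes with edgeR, of which 0% were called, although 1990 had an unadjusted p under 0.05 and DESeq2 called 137 higher and 140 lower. Among the members Baat had the lowest unadjusted p. It had 263, 280.0 and 266 CPM in dmPGE2 livers, against 218, 193 and 220.3 CPM in saline livers, without overlap. The log2 fold change was 0.36 ± 0.14 with a 95% interval from 0.05 to 0.67 (edgeR adjusted p = 0.280).

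Cyp8b1 had the widest difference with dmPGE2 alone, 529, 396 and 650.3 CPM in dmPGE2 livers, against 411, 381 and 280.1 CPM in saline livers. The lowest dmPGE2 liver lay inside the saline range, and the change was 0.56 ± 0.31 (edgeR adjusted p = 0.440). For Cyp7a1 the dmPGE2 livers had 154, 207 and 259 CPM and the saline livers 174, 259 and 203 CPM, which overlap, with an interval from -0.75 to 0.68 around -0.04. Cyp27a1 and Abcc2 also did not overlap, at 0.36 and 0.18, so the groups were separate for 3 members, against 26.3% of all genes. Abcb11 had 245, 239 and 220.5 CPM in dmPGE2 livers, against 242, 269.9 and 336 CPM in saline livers, at -0.27 ± 0.19.

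The effect of dmPGE2 in injured livers was then set against its effect in uninjured livers, as the interaction term. It was past the test and positive for 5 members, against a background of 15.4% of all genes, and negative for none, against 19.6% (35% in either direction). They were Cyp7a1 (2.03 ± 0.48), Abcb11 (1.10 ± 0.27), Slc27a5 (0.89 ± 0.26), Slc10a1 (0.85 ± 0.23) and Baat (0.77 ± 0.20), with edgeR adjusted p of 0.00598, 0.00689, 0.0157, 0.0115 and 0.00964. Cyp27a1 was at 0.74 ± 0.28 (edgeR adjusted p = 0.0510), and Abcc2, Cyp7b1, Abcb4 and Cyp8b1 lay between 0.46 and 0.71 without passing.

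With library totals the interaction held for 2 members, Cyp7a1 and Abcb11, where 1.27% of all genes were higher and 36.5% lower. With hepatocyte marker scaling it held for none in that direction. There 9 of the 10 members had negative values and 1, Abcb4, was called lower (-0.67, adjusted p = 0.0482). Of all genes 63.5% were lower and 0.154% higher under that scaling, with a median of -1.29 against -0.42 for the members. Of the hepatocyte markers themselves 8 of 10 had a positive interaction past the test with TMM, where 15.4% of all genes did. Their median was 1.15, above the members' median of 0.75. Without GalN/LPS replicate 2 the count was 7, with Cyp27a1 (0.99, adjusted p = 0.00595) and Abcc2 (1.09, adjusted p = 0.00237) added, and without GalN/LPS replicate 3 it was 4, with Slc27a5 lost (0.75, adjusted p = 0.0503).

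Levels were compared between genes per length, in FPKM. In every group Slc27a5 had the highest mean of the 10, with 611 ± 32.0 FPKM in pretreated livers, 347 ± 92.3 FPKM in GalN/LPS livers, 304 ± 31.3 FPKM in dmPGE2 livers and 311 ± 30.0 FPKM in saline livers. In dmPGE2 livers its range overlapped that of the second gene, Cyp8b1, and in the other groups it was clear of the second. Cyp8b1 took rank 2 of the 10 in dmPGE2 livers (273 ± 68.9 FPKM) and rank 3 in saline livers (186 ± 36.7 FPKM), but rank 8 in pretreated livers (53.7 ± 9.32 FPKM) and in GalN/LPS livers (27.9 ± 14.5 FPKM). Cyp7a1 was the lowest of the 10 in pretreated livers (13.8 ± 6.81 FPKM) and GalN/LPS livers (3.59 ± 1.32 FPKM), with no overlap with the next gene, Abcb4, whereas its mean was above those of Abcc2 and Abcb4 in dmPGE2 livers (50.2 ± 13.2 FPKM), where its range overlapped that of Abcc2, and in saline livers (51.6 ± 10.7 FPKM), where it overlapped neither.

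The order of the middle genes was the same in both injured groups. Cyp27a1, Slc10a1, Cyp7b1, Abcb11, Baat, Abcc2, Cyp8b1 and Abcb4 followed Slc27a5 in that order in pretreated and in GalN/LPS livers, although neighbours overlapped between Cyp27a1 and Slc10a1, between Cyp7b1 and Abcb11, and from Baat through Abcb4. In saline livers the alternative-route Cyp27a1 (132 ± 21.9 FPKM) and Cyp7b1 (149 ± 53.4 FPKM) overlapped each other and Cyp8b1. The mean of Abcb11 was 13.2 times that of Cyp7a1 in pretreated livers, 29.6 times in GalN/LPS livers, 0.92 times in dmPGE2 livers and 1.08 times in saline livers.

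Over the 13 libraries the members fell into blocks by the likeness of their levels, given as Pearson's r of log2 CPM and as a description only, since the libraries come in 4 groups and share those group differences and the scaling. Cyp7a1, Cyp8b1 and Baat were alike, with r from 0.83 to 0.91. Cyp27a1, Slc27a5, Abcb11, Slc10a1, Abcb4 and Abcc2 were alike, with r from 0.72 to 0.96. Between the 2 blocks r ran from -0.76, for Cyp8b1 with Abcb11, to 0.28, for Baat with Slc10a1. Cyp7b1 was like none of them, with r from -0.11 to 0.41.

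**Figure D4:**
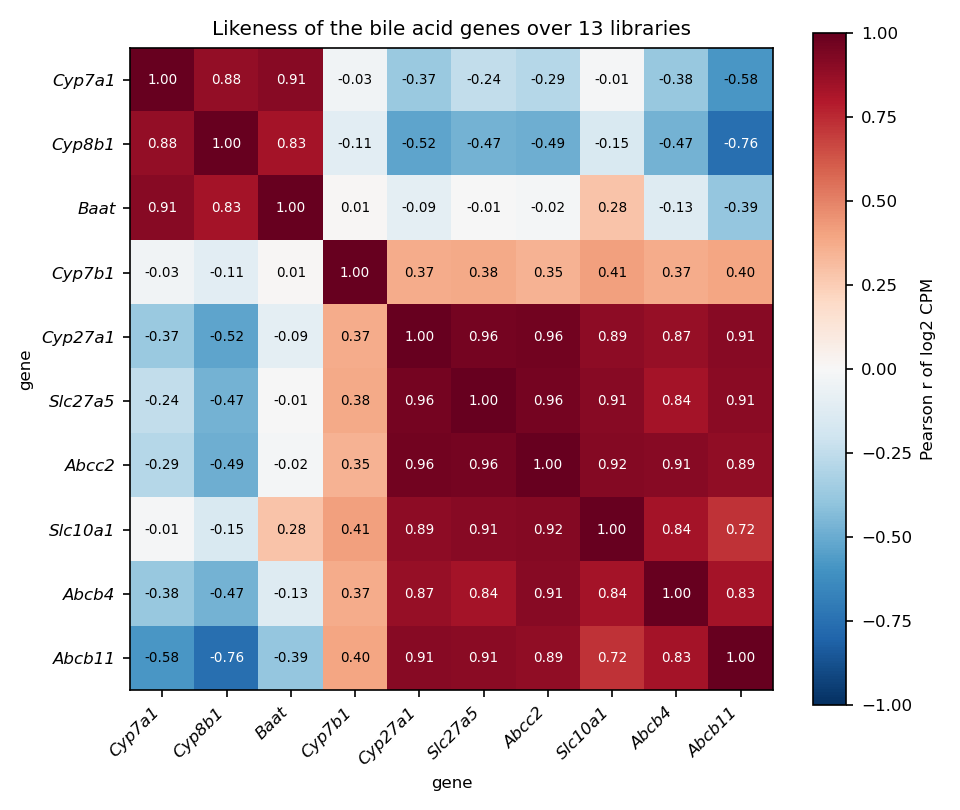
Pearson's r of log2 CPM over 13 libraries for each pair of the 10 bile acid genes, from blue (-1) through white (0) to red (1), with genes on both axes. A red block holds Cyp7a1, Cyp8b1 and Baat (0.83 to 0.91), a second holds Cyp27a1, Slc27a5, Slc10a1, Abcb4, Abcc2 and Abcb11 (0.72 to 0.96), and Cyp7b1 is pale, with r of at most 0.41.

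Among 8563 genes with a mean of at least 5 CPM and an established symbol, those most like each member by the same measure were mostly not bile acid genes. Cyp7a1 was most like Mrpl15, a mitochondrial ribosomal protein gene (r = 0.98), which had 33.3 ± 4.23 CPM in pretreated livers, 24.2 ± 3.08 CPM in GalN/LPS livers, 60.2 ± 2.99 CPM in dmPGE2 livers and 57.2 ± 5.27 CPM in saline livers. Cyp8b1 was most like the mitochondrial carrier Slc25a47 (0.97), with 178 ± 19.5 CPM in pretreated livers, 88.9 ± 20.7 CPM in GalN/LPS livers, 823 ± 187 CPM in dmPGE2 livers and 757 ± 38.1 CPM in saline livers. Baat was closest to Dglucy (0.98), Cyp27a1 to the fatty acid oxidation enzyme Echs1 (0.99), Slc27a5 to the phospholipase Pla1a (1.00), Abcb11 to Tm9sf4 (0.99), Slc10a1 to Zadh2 (0.97), Abcb4 to Gpd2 (0.97) and Abcc2 to Enpep (0.98). Cyp7b1 had the weakest match, Selenbp2 (0.84), with 2299 ± 804 CPM in pretreated livers, 1462 ± 109 CPM in GalN/LPS livers, 1678 ± 114 CPM in dmPGE2 livers and 1520 ± 131 CPM in saline livers.

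Of 18 regulators of the pathway tested, 11 fell in GalN/LPS livers against saline and 1 rose, with a median of -1.28, where 25.6% of all genes fell and 27.4% rose. With library totals 11 fell as well, where 30.0% of all genes did, and with hepatocyte marker scaling 11 fell, where 19.7% did. Nr1h4, the bile acid receptor, had 23.6, 22.6 and 20.5 CPM in GalN/LPS livers, against 141, 159 and 115 CPM in saline livers, a change of -2.63 ± 0.14 (edgeR adjusted p = 6.92e-10). Its target Nr0b2, a repressor that lacks a DNA-binding domain, had 2.18, 1.26 and 1.08 CPM in GalN/LPS livers, against 6.42, 19.1 and 26.3 CPM in saline livers, a change of -3.51 ± 0.43 (edgeR adjusted p = 4.54e-06). Neither gene overlapped between the groups. Other regulators that fell were the hepatocyte factors Prox1 (-2.77 ± 0.22) and Foxa2 (-2.19 ± 0.36), the FXR partner Rxra (-2.20 ± 0.19), Nr5a2, an activator of Cyp7a1 and Cyp8b1 (-1.52 ± 0.17), the fatty acid receptor Ppara (-1.72 ± 0.22), the FGF coreceptor Klb (-1.04 ± 0.27) and the xenobiotic receptor Nr1i2 (-0.54 ± 0.18). Hnf4a, an activator of several members, was at 0.29 ± 0.19 and Fgfr4 at -0.12 ± 0.16, both not past the test.

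In pretreated against GalN/LPS livers 5 of 18 regulators rose and 6 fell with TMM, with a median of 0.08, shares near those of all genes (24.4% and 30.1%) and no result about the list. With library totals 0 rose and 9 fell, where 4.31% of all genes rose and 47.6% fell. With hepatocyte marker scaling 0 rose and 10 fell, where 0.567% of all genes rose and 65.1% fell. The falls are near or under these shares and are no result about the list either. Nr1h4 had 35.6, 31.4, 35.9 and 38.9 CPM in pretreated livers, against 23.6, 22.6 and 20.5 CPM in GalN/LPS livers, a change of 0.67 ± 0.13 (edgeR adjusted p = 0.000628) that was 0.15 with library totals and -0.24 with hepatocyte marker scaling. Fgfr4 (0.57 ± 0.15), Hnf4a (0.63 ± 0.18) and Nr1i2 (0.58 ± 0.17) likewise rose with TMM, were not past the test with library totals and turned negative, without passing, with hepatocyte marker scaling.

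In pretreated against GalN/LPS livers the median of all genes was -0.10 with TMM, -0.61 with library totals and -0.99 with hepatocyte marker scaling. A fall with TMM could hardly be lost under the other scalings, so keeping it is no check on the scaling. The regulators that fell with pretreatment did so under each of the 3 scalings. They included Nr5a2, with 4.13, 5.33, 6.51 and 7.44 CPM in pretreated livers, against 10.1, 12.1 and 12.1 CPM in GalN/LPS livers, and S1pr2, a receptor that conjugated bile acids can activate, with 1.19, 1.43, 0.834 and 1.02 CPM in pretreated livers, against 5.10, 3.59 and 4.92 CPM in GalN/LPS livers. Their groups were separate, with changes of -0.97 ± 0.17 and -2.004 ± 0.24 (edgeR adjusted p = 0.000321 and 2.17e-05). Foxa2 was at -1.85 ± 0.41, Prox1 at -0.63 ± 0.21 and the repressor Mafg at -0.64 ± 0.13. Nr0b2 (0.14 ± 0.46) and Klb (0.30 ± 0.27) did not pass the test. Against saline 13 regulators were lower in pretreated livers and 3 higher with TMM, where 30.2% of all genes were lower and 34.8% higher. With library totals 14 were lower and 0 higher, where 47.6% of all genes were lower and 11.8% higher. With hepatocyte marker scaling 17 were lower and 0 higher, where 51.8% of all genes were lower and 6.79% higher. Nr1h4 was at -1.96 ± 0.12, Nr0b2 at -3.37 ± 0.39 and Nr5a2 at -2.50 ± 0.17.

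With dmPGE2 alone no regulator passed the test. The lowest adjusted values were those of Ppara, with 98.2, 77.5 and 82.5 CPM in dmPGE2 livers, against 50.7, 29.0 and 41.3 CPM in saline livers (1.09 ± 0.21, edgeR adjusted p = 0.0716), and Nr0b2, with 4.69, 5.80 and 5.70 CPM in dmPGE2 livers, against 6.42, 19.1 and 26.3 CPM in saline livers (-1.68 ± 0.37, edgeR adjusted p = 0.0832). Neither overlapped between its groups. With hepatocyte marker scaling Ppara was called higher (1.38, adjusted p = 0.0211). Klb was at 0.84 ± 0.26, Nr1i2 at -0.60 ± 0.18 and Nr1h4 at -0.02 ± 0.13. Fgf15, the intestinal hormone that represses Cyp7a1, and Fabp6, an ileal bile acid binding protein, had 0 counts in all 13 libraries, which allows up to 0.0131 CPM over the libraries.

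**Figure D5:**
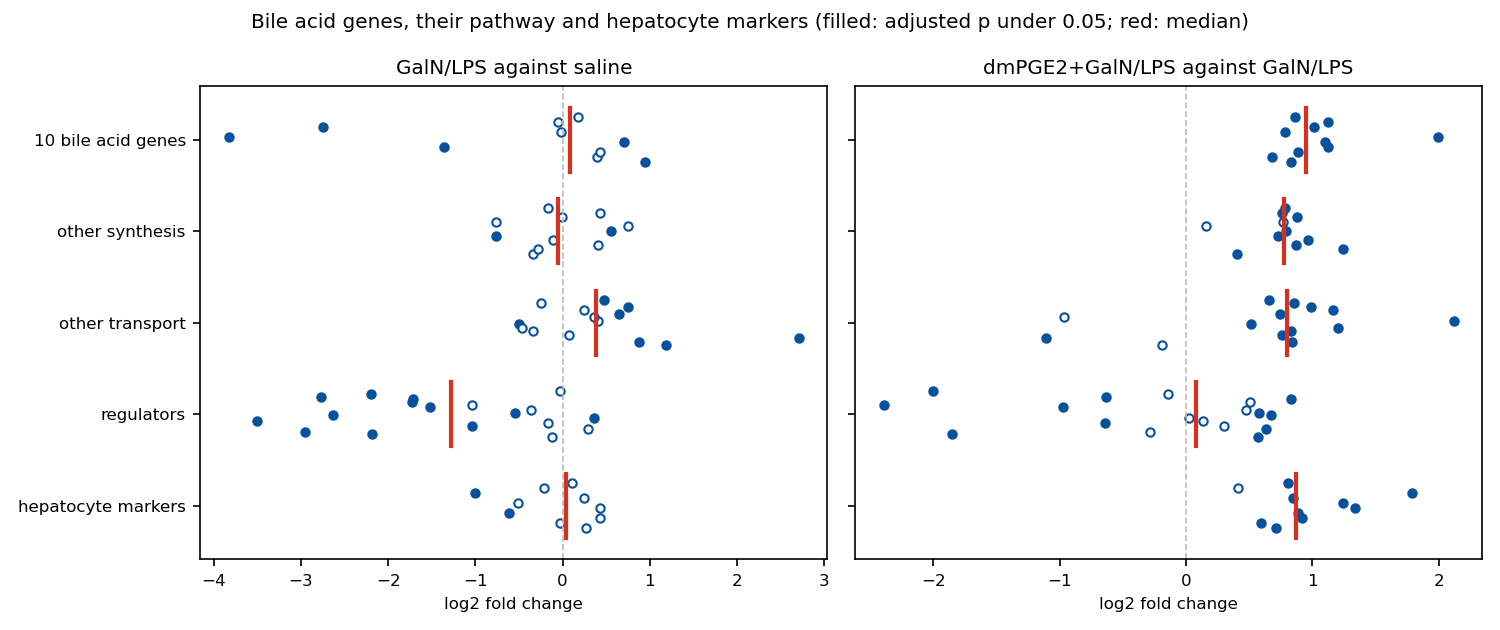
Log2 fold changes (x axis, TMM scaling) of the 10 bile acid genes, of other synthesis genes, other transporters, regulators and hepatocyte markers (rows), filled where the edgeR adjusted p was under 0.05, with each list's median in red; Ch25h, with 1 count in saline livers, is left out of the points. With GalN/LPS the regulators have the lowest median (-1.28), and in pretreated against GalN/LPS livers the members (0.95) and hepatocyte markers (0.87) lie side by side, medians that become 0.42 and 0.37 with library totals and 0.03 and -0.01 with hepatocyte marker scaling.

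Of 12 other synthesis genes tested, 2 rose and 1 fell in GalN/LPS livers against saline, where 27.4% of all genes rose and 25.6% fell. With library totals 1 rose and 3 fell, where 21.5% and 30.0% did. These counts are under the shares of all genes and are no result about the list. In pretreated against GalN/LPS livers 9 rose and 1 fell with a median of 0.78, where 24.4% of all genes rose and 30.1% fell. With library totals 3 rose and 1 fell, where 4.31% and 47.6% of all genes did. With hepatocyte marker scaling 0 rose and 2 fell, where 0.567% and 65.1% of all genes did. Acox2, the peroxisomal oxidase for the bile acid side chain, rose by 1.24 ± 0.18 with pretreatment, and Hsd17b4 (0.88 ± 0.16), Amacr (0.73 ± 0.13), Scp2 (0.76 ± 0.17), Akr1c6 (0.87 ± 0.21), Slc27a2 (0.78 ± 0.20) and Cyp2c70, which makes the muricholic acids of mice (0.79 ± 0.21), rose as well. With GalN/LPS alone Amacr fell (-0.77 ± 0.14) and Cyp2c70 rose with TMM (0.55 ± 0.22, edgeR adjusted p = 0.0447) but was not past the test with library totals (0.35, adjusted p = 0.129) or hepatocyte marker scaling (0.51, adjusted p = 0.0601), while Cyp39a1 and Cyp46a1 passed neither test. The exception was Ch25h, a cholesterol hydroxylase of macrophages and other immune cells, with 25, 87, 11 and 18 counts in pretreated livers, 835, 334 and 1113 counts in GalN/LPS livers, 2, 0 and 0 counts in dmPGE2 livers and 0, 1 and 0 counts in saline livers. It was lower with pretreatment by -3.93 ± 0.45 (edgeR adjusted p = 1.34e-05). Of the Kupffer cell markers 8 of 8 fell in the same comparison with TMM, where 30.1% of all genes fell.

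Among other transporters 14 were tested, and in GalN/LPS livers against saline 6 rose and 1 fell with TMM, where 27.4% of all genes rose and 25.6% fell. With library totals 3 rose and 3 fell, where 21.5% and 30.0% of all genes did, counts near or under those shares and no result about the list. With hepatocyte marker scaling 6 rose and 0 fell, where 23.1% and 19.7% of all genes did. The basolateral exporter Abcc4 had 5.84, 5.29 and 6.20 CPM in GalN/LPS livers, against 0.550, 0.498 and 1.59 CPM in saline livers, a change of 2.71 ± 0.37 (edgeR adjusted p = 1.67e-05). Abcc3, another basolateral exporter (0.87 ± 0.31), Abcb1a (1.19 ± 0.36), Tmem30a (0.47 ± 0.17) and the uptake carriers Slco1a1 (0.64 ± 0.23) and Slco1b2 (0.75 ± 0.27) rose too with TMM, and of these Abcc3, Tmem30a and Slco1a1 were not past the test with library totals. Slc51b, a basolateral exporter that FXR induces, had 0.44 ± 0.34 CPM in GalN/LPS livers and 0.33 ± 0.07 CPM in saline livers and did not pass the test in any comparison.

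In pretreated against GalN/LPS livers 11 of the 14 transporters rose and 1 fell with TMM, where 24.4% of all genes rose and 30.1% fell. With library totals 4 rose and 1 fell, where 4.31% and 47.6% of all genes did, and with hepatocyte marker scaling 1 rose and 2 fell, where 0.567% and 65.1% did. The 1 that rose under all 3 was Slc10a2, the sodium-dependent carrier known from ileum and bile duct cells. It had 172, 83.4, 96.0 and 132 CPM in pretreated livers, 20.8, 31.1 and 31.7 CPM in GalN/LPS livers, 15.03, 19.7 and 13.7 CPM in dmPGE2 livers and 14.8, 15.3 and 32.9 CPM in saline livers. Every pretreated liver was above every other liver, with a change of 2.12 ± 0.30 against GalN/LPS livers (edgeR adjusted p = 6.94e-05) that was 1.60 with library totals and 1.24 with hepatocyte marker scaling. The interaction for Slc10a2 was 2.50 ± 0.43 (edgeR adjusted p = 0.00106). Of the cholangiocyte markers 3 of 7 were lower and none higher after pretreatment with TMM, where 30.1% of all genes were lower and 24.4% higher. The falls are near that share and no result about the list. The summed level of these markers was 81.7 to 116 CPM in pretreated livers and 103 to 191 CPM in GalN/LPS livers. The cell source of Slc10a2 was not tested.

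Abcc4 was the transporter that fell with pretreatment, with 1.83, 3.35, 3.25 and 2.28 CPM in pretreated livers, against 5.84, 5.29 and 6.20 CPM in GalN/LPS livers, and a change of -1.10 ± 0.32 (edgeR adjusted p = 0.00897). It fell under all 3 scalings, but the alternatives to TMM shift all genes down here, so this fall could hardly be lost. Abcc4 stayed above saline with TMM (1.61 ± 0.37), though not past the test with library totals (0.94, adjusted p = 0.0506). The sterol exporters Abcg8 (1.2005 ± 0.28) and Abcg5 (0.83 ± 0.29), and Slco2b1 (0.86 ± 0.12), Abcg2 (0.76 ± 0.15) and Abcc3 (0.84 ± 0.29) rose with TMM, and none of these 5 was called with hepatocyte marker scaling. With dmPGE2 alone no transporter and no other synthesis gene passed the test.

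Over the same comparison, 7 of 7 neutrophil and 7 of 7 sinusoidal endothelial markers fell in pretreated against GalN/LPS livers with TMM, where 30.1% of all genes fell. The summed neutrophil level was 253 to 407 CPM in pretreated livers, against 656 to 868 CPM in GalN/LPS livers, and the Kupffer sum 257 to 409 CPM in pretreated livers, against 560 to 919 CPM in GalN/LPS livers. The part of these markers in the rise of the bile acid genes was not tested.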

How the data were processed

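Total liver RNA, 1 µg a sample, was made into libraries with the NEBNext Ultra RNA kit, per the labels' protocols. Reads were aligned with HISAT2 to GRCm38/mm10, per the submitters' processing notes. The counter, annotation release, strand setting and FPKM denominator were not given in the sources used here. Worked back from counts and gene lengths, the denominator was 0.706 to 0.871 times the library total in pretreated livers. It was 0.934 to 1.10 times in GalN/LPS livers, 1.16 to 1.28 times in dmPGE2 livers and 1.16 times in saline livers. These values lie near the TMM factors, so the fits on FPKM are no check on the scaling. The authors deposited raw counts per gene and FPKM values for 13 libraries. The ALF columns were assigned to GalN/LPS because every other group of the labels had columns of its own name, and the labels name GalN/LPS where the series text names another model.

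Counts were tested with edgeR 4.0.16 in R 4.3.3 (filterByExpr, TMM, quasi-likelihood F test, all 13 libraries, group as the only term), with Benjamini-Hochberg adjustment over 14280 genes and a threshold of 0.05. Deposited FPKM was used to compare levels between genes, and in limma 3.58.1 fits on log2(FPKM + 1) and log2(FPKM + 0.1). Alternatives were DESeq2 1.42.0, RLE, library totals, no filter, only the groups compared, a replicate block and leaving out each library; scaling to 10 hepatocyte markers was added after seeing the data. The edgeR fit was run on simulated data with 200 changed genes, as many up as down, and the same spread for all genes. So few and balanced changes leave the scaling of the present data untested.

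Named were the 10 members, up to 4 genes of each pathway list per comparison by adjusted p with 11 set ones, and the 3 genes most like each member, of which the text gives the first. One gene that this rule names is not reported here. Members and lists were chosen with earlier results of these data known. Totals of 14829800 to 20777800 counts gave each member at least 178 counts.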

Additional observations from a re-analysis of the deposited data

Results flagged for a closer look

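For 5 members the effect of dmPGE2 differed between injured and uninjured livers by edgeR's test of the interaction (4 pretreated and 3 GalN/LPS livers, 3 dmPGE2 and 3 saline livers). The log2 difference of effects was 2.03 for Cyp7a1, 1.10 for Abcb11, 0.89 for Slc27a5, 0.85 for Slc10a1 and 0.77 for Baat. With library totals it was 1.46 for Cyp7a1 and 0.55 for Abcb11, both past the test (adjusted p = 0.0143 and 0.0486), and the other 3 were not. With hepatocyte marker scaling none of the 5 passed, where 0.154% of all genes were called higher and 63.5% lower. Of the 10 hepatocyte markers 8 had a positive interaction past the test with TMM, where 15.4% of all genes did. The part of these markers in the members' values was not tested.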

How the results depend on the processing

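Over 50 gene values and 23 alternatives, 1050 of 1140 recomputed values kept their direction and their side of the threshold, 41 were no longer past it, 14 passed it newly and 35 changed sign, 8 of them values that had been called, all under hepatocyte marker scaling. The cause was not tested. Counts of members called higher became 6 with library totals (4.31% of all genes) and 1 with hepatocyte marker scaling (0.567%) for pretreated against GalN/LPS livers. They became 2 with hepatocyte marker scaling (6.79% of all genes) for pretreated against saline livers. For the interaction they became 2 with library totals (1.27% of all genes) and 0 with hepatocyte marker scaling (0.154%). Under the last scaling 1 member was called lower, where 63.5% of all genes were. Leaving out 1 library gave 1 to 2 members higher and 3 lower for GalN/LPS against saline, 9 to 10 higher for pretreated against GalN/LPS, 6 to 7 higher and 2 to 3 lower for pretreated against saline, 4 to 7 higher for the interaction and 0 for dmPGE2 against saline.

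For GalN/LPS against saline livers Slc27a5 became -0.0200 with library totals, and -0.106 to 0.296 over the fits that left out 1 library. Cyp7b1 became 0.0153 in the limma fits on log2(FPKM + 1) with and without a filter, 0.0156 with log2(FPKM + 0.1), 0.0163 with hepatocyte marker scaling and -0.214 to 0.302 leaving out 1 library. For dmPGE2 against saline livers Cyp7a1 became 0.0299 with library totals, 0.240 with hepatocyte marker scaling and -0.228 to 0.142 leaving out 1 library. Slc27a5 became 0.0431 with library totals, 0.0011 with no filter, 0.264 with hepatocyte marker scaling and -0.107 to 0.0383 leaving out 1 library. Cyp7b1 ran from -0.0067 to 0.518 leaving out 1 library, and Abcb11 became 0.0421 with hepatocyte marker scaling.

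With hepatocyte marker scaling Cyp7b1, Abcb11 and Abcb4 became -0.0870, -0.0090 and -0.227 for pretreated against GalN/LPS livers, and Cyp7b1 -0.0706 for pretreated against saline livers. The interaction became -0.191 for Cyp8b1 and -0.0624 for Abcb4 with library totals. With hepatocyte marker scaling it became -0.560 for Cyp7b1, -0.804 for Cyp8b1, -0.430 for Cyp27a1, -0.416 for Baat, -0.251 for Slc27a5, -0.0512 for Abcb11, -0.323 for Slc10a1, -0.668 for Abcb4 and -0.441 for Abcc2. The median interaction of all genes was -1.29 under that scaling.

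Libraries with the same replicate number did not deviate together (18 pairs, r from -0.31 to 0.09, against 45 other pairs from -0.14 to 0.21). With 3 or 4 libraries a group this cannot exclude a pairing. A replicate block moved Cyp7b1 to 0.0634 for GalN/LPS against saline livers and left the counts of members called at 2 higher and 3 lower, 10 higher, 0, 7 higher and 2 lower, and 5 higher for the interaction.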
